A study of Mus musculus with 19 samples.

Results

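Gene expression was compared between 2 groups of preleptotene spermatocytes, the germ cells that stand at the entry into meiosis: cells with a high level of STRA8 and cells that lack a functional Stra8 gene. The genes described are the 12471 of 22419 in the tables with more than 1 TPM, a level that is scaled for transcript length and library size so that each library has the same total, in at least 1 of the 5 libraries. Of these, 12458 could be given counts and were tested. Genes at the edge of the limit were Clca3a2, Pqlc1 and Olfr1307, which reached 1.001, 1.001 and 1.002 TPM in their highest library, and Grrp1, Creg2 and Wscd1, which stopped at 0.9997, 0.997 and 0.9964 TPM and were left out.

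All the males were C57BL/6 mice that carried Ddx4-Cre and a Rosa26-tdTomato reporter, so that the Ddx4 promoter, active in germ cells, switched on the red fluorescent protein by which germ cells were sorted. The 3 Stra8-deficient libraries came from Stra8 knock-out males and the 2 high-STRA8 libraries from Stra8 heterozygous males, so that the control cells carried 1 working copy of the gene and were not wild-type. In both groups spermatogenesis had been synchronized with WIN18,446, which blocks the making of retinoic acid, from postnatal day 2 to day 8, followed by retinoic acid on day 9, and the testes were taken 6.75 days after that injection. A heterozygous testis was placed in the high-STRA8 group when STRA8 staining of a biopsy showed it to be in mid to late preleptotene. The same staining cannot place knock-out cells within the stage, so the genotype and the point reached within preleptotene cannot be told apart in this comparison. These are sums over many sorted cells, in which fewer cells of a type and less RNA per cell cannot be told apart. The labels say of replicates only that they are separate samples, so the p-values measure the spread between these samples.

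Preleptotene is the last interphase before meiosis. In it the germ cell carries out its final DNA replication, loads meiotic cohesins on its chromosomes and begins to make the proteins that will break, pair and recombine them in prophase. Retinoic acid from the testis induces Stra8, and without STRA8 the cells of C57BL/6 males do not progress through a normal meiotic prophase.

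Stra8 itself lay far apart in the 2 groups. It measured 18, 22.8 and 5.16 TPM in the Stra8-deficient libraries and 1099 and 1248 TPM in the high-STRA8 libraries, a log2 difference of 6.31 ± 0.449 (SE; adjusted p = 6.7e-05), on chromosome 6 at 34920163 to 34939344 of mm10. Of its 3 annotated transcripts, ENSMUST00000114999 held 0% of the Stra8 TPM in all 3 Stra8-deficient libraries and 85.4% and 62.2% in the high-STRA8 libraries, while ENSMUST00000031876 and ENSMUST00000114997 shared the remainder. The reads left in the knock-out fell on the other transcript models. Ddx4, the germ cell helicase whose promoter drove the Cre, measured 213, 186 and 166 TPM against 177 and 197 TPM (log2 difference 0.08 ± 0.111), with overlapping groups and an adjusted p of 0.613.

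The genes whose promoters bear on the comparison are shown by 3 windows of 300 bases, each running from 250 bases before to 50 bases after a RefSeq start site on GRCm38.p6. They are Stra8 and those of the largest increases whose promoter held both a STRA8 summit in each of 3 ChIP libraries and the letters CNCCTCAG, the motif described for STRA8-bound promoters, in the window. The window of Stra8 is chr6:34920698-34920997, plus strand. The first window of Pparg, the nuclear receptor best known from fat cells, is chr6:115360894-115361193, plus strand. The window of Spdya, an activator of CDK2 at meiotic telomeres, is chr17:71551811-71552110, plus strand. Matches to CNCCTCAG on either strand are in capitals.
Stra8: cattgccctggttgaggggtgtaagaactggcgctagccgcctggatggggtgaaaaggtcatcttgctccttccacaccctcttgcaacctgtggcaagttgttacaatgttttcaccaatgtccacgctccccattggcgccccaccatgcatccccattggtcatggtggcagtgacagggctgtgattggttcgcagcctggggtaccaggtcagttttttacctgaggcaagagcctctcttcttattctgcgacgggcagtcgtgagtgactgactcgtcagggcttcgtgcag
Pparg: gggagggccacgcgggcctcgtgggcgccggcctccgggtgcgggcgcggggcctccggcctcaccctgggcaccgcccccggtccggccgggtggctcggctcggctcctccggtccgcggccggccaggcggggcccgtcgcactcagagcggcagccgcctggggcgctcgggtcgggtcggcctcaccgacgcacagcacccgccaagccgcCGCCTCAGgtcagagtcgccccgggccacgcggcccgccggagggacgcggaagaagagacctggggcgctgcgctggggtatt
Spdya: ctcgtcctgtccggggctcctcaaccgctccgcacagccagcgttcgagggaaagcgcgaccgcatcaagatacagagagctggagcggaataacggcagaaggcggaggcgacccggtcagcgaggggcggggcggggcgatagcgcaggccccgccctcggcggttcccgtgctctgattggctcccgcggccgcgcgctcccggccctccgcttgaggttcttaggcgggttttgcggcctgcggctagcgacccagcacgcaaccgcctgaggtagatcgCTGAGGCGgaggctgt
The Pparg window held 1 match, which starts 34 bases before the start site, and the Spdya window held 1 match on the minus strand, from base 35 after the start. The Stra8 window held none, although FLAG-STRA8 summits lay 116 and 69 bases before its start in libraries 1 and 3. In Pparg the 3 summits lay 102, 126 and 151 bases after the start, and in Spdya 68, 15 and 55 bases after it. All the Pparg summits and the Spdya summits at 68 and 55 bases therefore lie outside the sequence shown.

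The 5 libraries were of like depth. Their estimated counts summed to between 26889698 and 30015072, and between 11619 and 11852 genes exceeded 1 TPM. The high-STRA8 pair correlated at r = 0.9912 over log2 levels of genes, the Stra8-deficient pairs at 0.9804 to 0.9879 and pairs across the groups at 0.9397 to 0.9607. These correlations run over genes, which are not independent replicates. Replicate 3 of the Stra8-deficient group was the least like its own group, and markers of blood cells and macrophages moved with it: their summed level was 22.7, 15.5 and 58.1 TPM in the Stra8-deficient libraries and 7.32 and 15.2 TPM in the high-STRA8 libraries. Ptprc, the pan-leukocyte marker, was at 0, 0.0185 and 1.18 TPM against 0 and 0.0207 TPM, and Csf1r, of macrophages, reached 2.37 TPM in replicate 3 and was at 0.147 TPM or less in the other libraries. The Sertoli cell list summed to between 1969 and 2558 TPM in all 5 libraries, with overlapping groups, but Sox9, at 6.84, 5.3 and 3.8 TPM in the Stra8-deficient and 7.95 and 7.45 TPM in the high-STRA8 libraries, and Wt1, at 26.9, 29.1 and 15.7 TPM against 34.4 and 36.0 TPM, were higher in both high-STRA8 libraries without being called. The Leydig list summed to 132 to 157 TPM in the Stra8-deficient and 116 to 120.4 TPM in the high-STRA8 libraries. On the 4 lists of somatic cells 1 gene was called higher, Pdgfra, and 3 were called lower, Star, Hbb-bs and Dmrt1, the last of which germ cells also express. By edgeR no Sertoli or Leydig gene was higher, also at an unadjusted p under 0.05, by DESeq2 or by limma on TPM, but a fit of the 5 libraries alone called 4 Sertoli genes higher, Sox9, Wt1, Cldn11 and Aard, which are named after their values were seen. The part of somatic cells in the results was not tested. The later germ cell markers Pgk2 and Acrv1 were at or near 0 in all 5 libraries, and Gfra1, of undifferentiated spermatogonia, was at 0.661 TPM or less, whereas Zbtb16, of the same cells, was at 16.7 to 20.6 TPM in the Stra8-deficient and 5.34 and 4.61 TPM in the high-STRA8 libraries.

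Levels changed in 37.3% of the genes tested, mostly by small factors. In high-STRA8 cells 2359 genes were higher, 18.9% of the genes tested, and 2286 were lower, 18.3% (edgeR quasi-likelihood test, Benjamini-Hochberg adjusted p under 0.05). These percentages are the background for each list described here. The median fold was 1.70 among the higher and 1.68 among the lower genes. Larger factors were more often increases: 746 genes rose and 723 fell by more than 2-fold, 175 and 101 by more than 4-fold, 44 and 21 by more than 8-fold and 19 and 10 by more than 16-fold. The higher genes carried 17.7, 17.3 and 15.8% of all TPM in the Stra8-deficient libraries and 27.3 and 27.8% in the high-STRA8 libraries. The lower genes went from 16.5, 16.3 and 17.0% to 10.8 and 10.3%. The libraries of the 2 groups did not overlap in TPM in 99.3% of higher genes, 99.7% of lower genes and 48.4% of genes not called. The balance of directions depended on the scale, since limma on log2(TPM + 1) gave 2049 higher and 3010 lower genes, 40.5% of its calls higher against 50.8% with counts, around a median log2 difference of -0.08 against -0.02. Power rested on the 2 high-STRA8 libraries. Leaving out replicate 1 of them gave 1414 higher and 1013 lower calls, and leaving out replicate 2 gave 1253 and 728. For each list count of at least 5 genes, the count is given again wherever leaving out a library, or limma on TPM, moved it by more than 1.5 times. Calls over all genes moved in these settings too, and with limma on TPM 16.4% of all genes were higher and 24.2% lower. A moved list count alone therefore does not show that a list is less stable than the other genes.

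**Figure D1:**
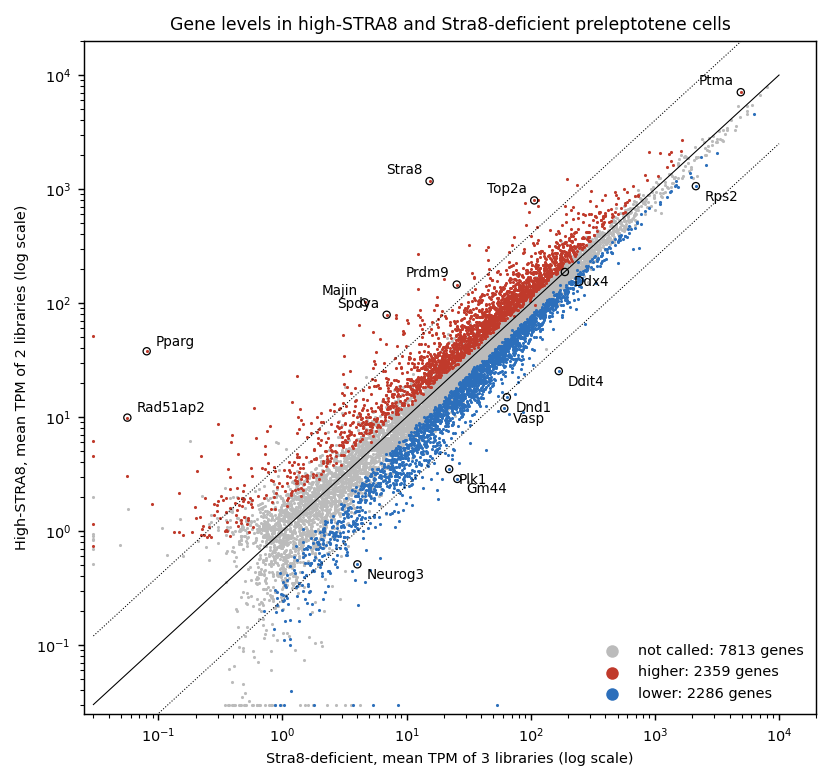
Mean TPM of each tested gene in the 3 Stra8-deficient libraries (horizontal, log scale) and the 2 high-STRA8 libraries (vertical, log scale), with values under 0.03 drawn at 0.03. The 2359 higher genes lie above the diagonal and the 2286 lower genes below it, and the dotted lines mark 4-fold differences, which 175 higher and 101 lower genes exceed.

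**Figure D2:**
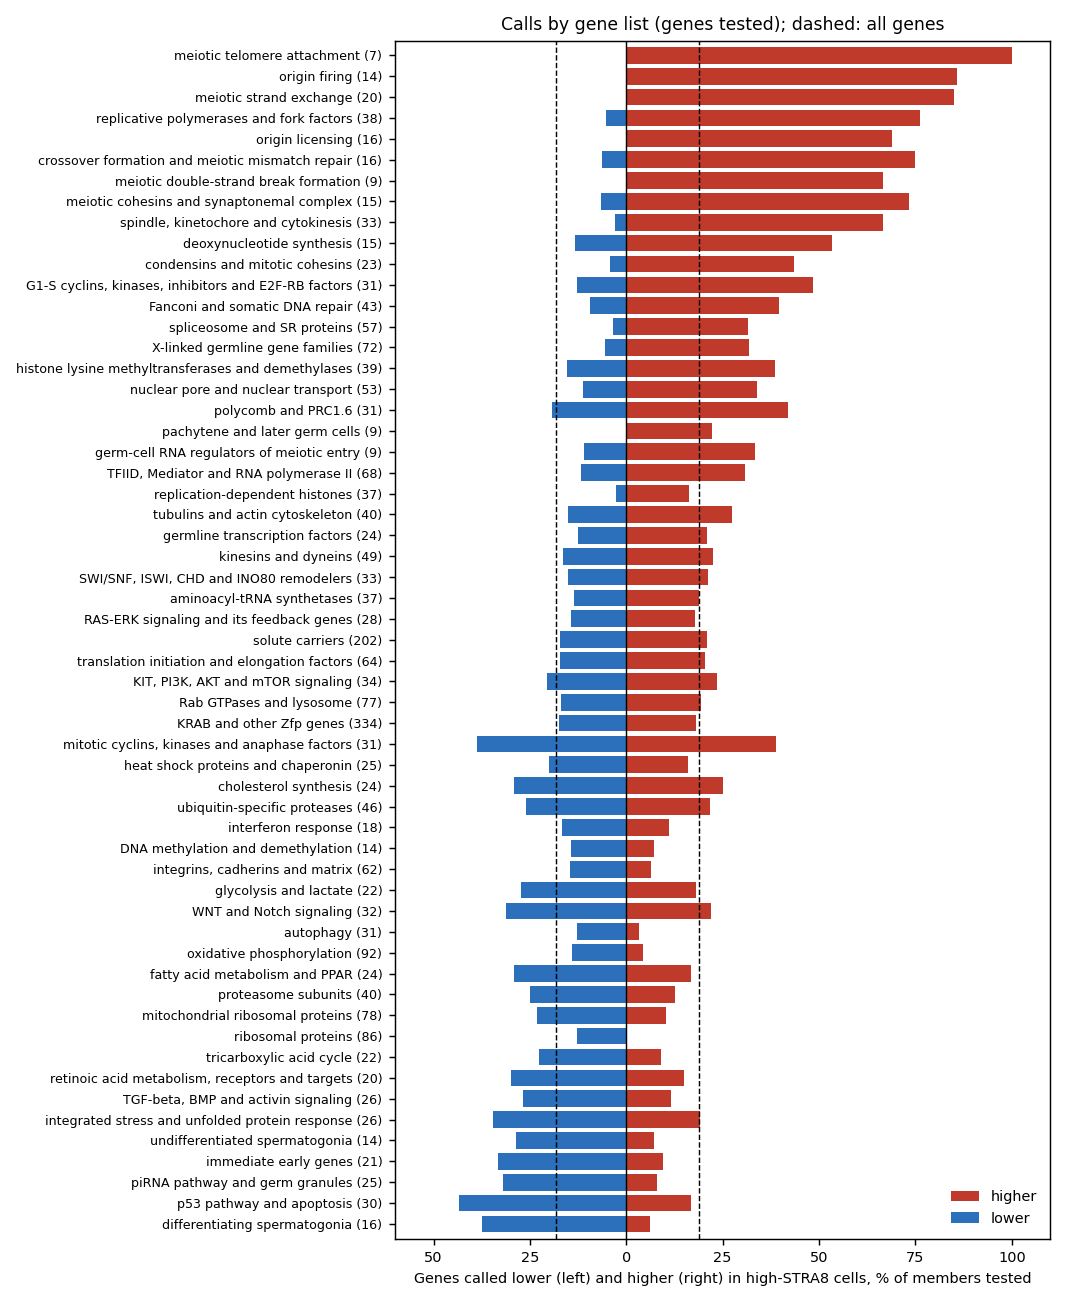
Percent of the tested genes of each list that were higher (to the right of 0) or lower (to the left of 0) in high-STRA8 cells, with the percent of all tested genes, 18.9 and 18.3, as dashed lines. Lists of meiotic chromosome proteins and DNA replication extend farthest to the right, with 7 of 7 telomere attachment genes higher, and spermatogonial, p53 pathway and immediate early lists extend to the left.

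Genes that build the meiotic chromosome were higher in high-STRA8 cells in each of 5 lists. Of the cohesins and synaptonemal complex proteins, which form the axis and hold homologs together, 11 of 15 rose and 1 fell, with a median log2 difference of 1.29 against -0.02 over all genes. Sycp3, the main axis protein, was already abundant without STRA8 at 1136, 975 and 585 TPM and reached 1980 and 2204 TPM (log2 difference 1.29 ± 0.22 SE, adjusted p = 0.00267). Hormad2, a HORMA-domain protein of unsynapsed axes, measured 53.1, 48.5 and 46.3 TPM against 112 and 125 TPM (log2 difference 1.39 ± 0.104). In both genes the 2 high-STRA8 libraries lay above all 3 of the other group, which the naming rule required of Sycp3 as an abundant gene. Rec8, the meiotic cohesin that is loaded before replication, was the exception: it fell from 281, 272 and 183 TPM to 135 and 149 TPM (log2 difference -0.70 ± 0.162, adjusted p = 0.0104).

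The double-strand break list had 6 of 9 genes higher and none lower (median 1.11). Prdm9, the histone methyltransferase that marks the sites of breaks, measured 29, 25.7 and 21.4 TPM in the Stra8-deficient libraries and 132 and 158 TPM in the high-STRA8 libraries, a log2 difference of 2.59 ± 0.159 (SE; adjusted p = 5.47e-05). Mei1, needed for break formation, measured 31.8, 43 and 30.5 TPM against 103 and 119 TPM (log2 difference 1.75 ± 0.171). In the break, telomere, licensing and firing lists no gene was lower by edgeR, at an unadjusted p under 0.05, by DESeq2 or by limma on TPM. Among the 20 strand exchange genes, whose products load recombinases on the broken ends, 17 rose and none fell, with 1 lower at an unadjusted p under 0.05 and by limma on TPM and none by DESeq2 (median 1.29). Dmc1, the meiotic recombinase, went from 41.5, 54.6 and 40 TPM to 301 and 317 TPM. Hsf2bp, which binds BRCA2, measured 35.4, 40.6 and 40.7 TPM against 119.8 and 106 TPM (log2 difference 1.62 ± 0.112), and Rad51ap1, a partner of recombinases, 32.5, 35.9 and 25.4 TPM against 116 and 122 TPM (log2 difference 2.02 ± 0.154). These genes had a sizable level without STRA8. Rad51ap2, which shares its name with Rad51ap1, was different, at 0.103, 0.0323 and 0.0339 TPM in the Stra8-deficient libraries and 9.67 and 10.1 TPM in the high-STRA8 libraries (log2 difference 7.43 ± 0.516).

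Crossover and mismatch repair genes rose in 12 of 16 cases (median 0.91). Msh5, a subunit of the MutS-gamma complex, which stabilizes crossover intermediates, measured 2.66, 3.0 and 3.64 TPM in the Stra8-deficient libraries and 22.2 and 25.5 TPM in the high-STRA8 libraries, a log2 difference of 3.06 ± 0.205 (SE; adjusted p = 6.47e-05). Brip1, the FANCJ helicase, measured 19.4, 19.3 and 14.5 TPM against 63.2 and 60.2 TPM (log2 difference 1.89 ± 0.144), and AI481877 on the same list 17.9, 15.5 and 12 TPM against 52.9 and 57.9 TPM (log2 difference 1.96 ± 0.155). Mlh3, which acts at the end of crossing over, moved the other way, from 32.1, 28.4 and 27.4 TPM to 14.9 and 16 TPM (log2 difference -0.83 ± 0.161, adjusted p = 0.00479). Crossover genes numbered 9 and 7 higher without high-STRA8 replicate 1 or 2. All 7 telomere attachment genes tested were higher (median 1.87). Majin, part of the complex that ties telomeres to the nuclear envelope, measured 2.87, 5.63 and 5.3 TPM in the Stra8-deficient libraries and 103 and 100 TPM in the high-STRA8 libraries, a log2 difference of 4.51 ± 0.368 (SE; adjusted p = 0.000103). Spdya measured 7.82, 6.54 and 6.36 TPM against 75.2 and 82.5 TPM (log2 difference 3.58 ± 0.244) and Terf1, a shelterin protein of all telomeres, 27.7, 23.8 and 27.2 TPM against 91.1 and 93.4 TPM (log2 difference 1.85 ± 0.138). 

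**Figure D3:**
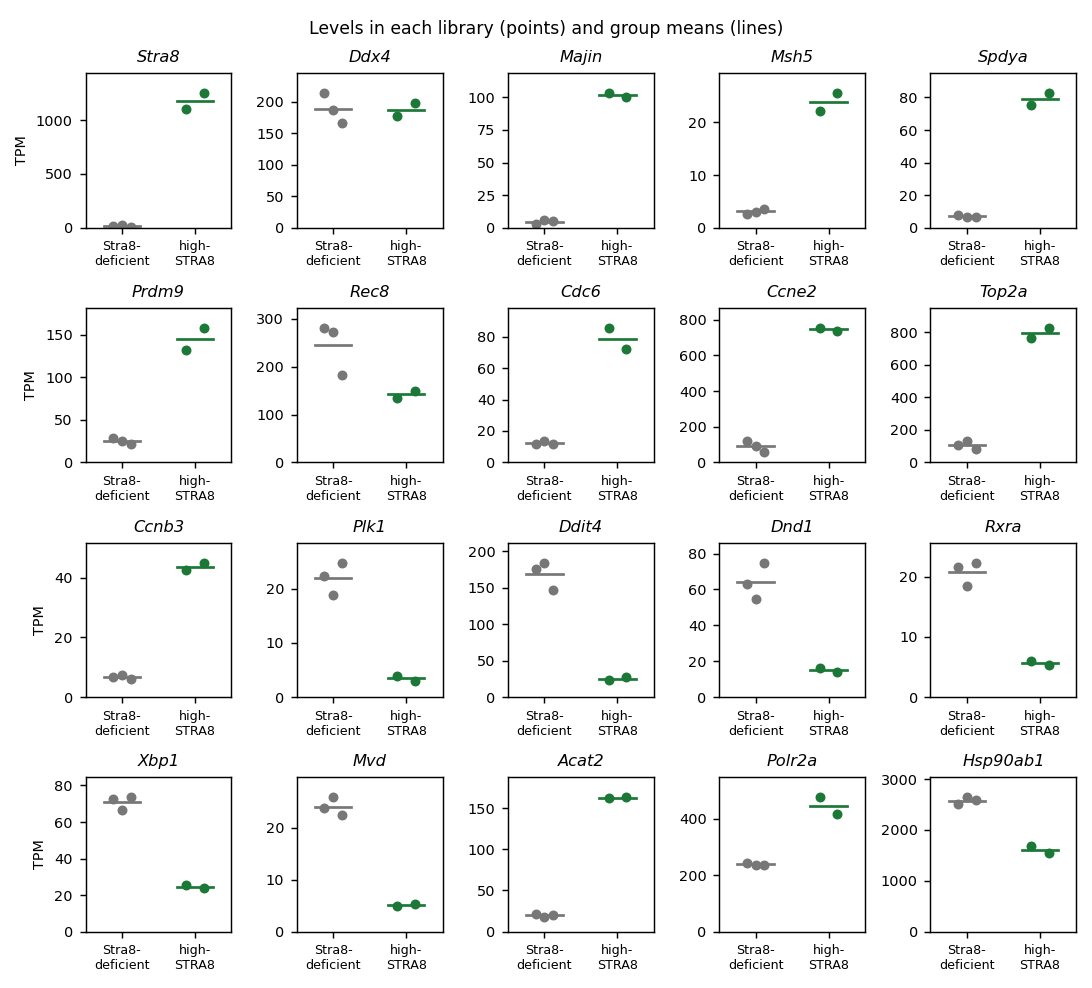
TPM of 20 genes in each of the 5 libraries (points; linear axes from 0, each panel with its own scale), with Stra8-deficient libraries on the left, high-STRA8 libraries on the right and lines at the group means. Genes such as Msh5 (22.2 and 25.5 TPM against 2.66 to 3.64 TPM) lie above the knock-out in both high-STRA8 libraries, and genes such as Plk1 (3.96 and 3.02 TPM against 18.8 to 24.8 TPM) lie below it.

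RNA-binding regulators of meiotic entry were mixed, with 3 higher and 1 lower of 9. Meioc and Ythdc2, whose proteins act together to keep germ cells in meiotic prophase, both rose, Meioc from 275, 192 and 188 TPM to 519.8 and 565 TPM (log2 difference 1.39 ± 0.173) and Ythdc2 from 48.7, 41.9 and 33.5 TPM to 74.1 and 82.7 TPM (1.01 ± 0.154). Dnd1, which guards the identity of early germ cells, fell from 62.9, 54.8 and 74.9 TPM to 16.1 and 13.7 TPM (-2.03 ± 0.216, adjusted p = 0.000308).

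Germline transcription factors showed 5 higher and 3 lower of 24, 20.8% and 12.5% against 18.9% and 18.3% over all genes. Mybl1, the master regulator of the pachytene program, measured 6.87, 7.67 and 5.06 TPM against 30 and 29.6 TPM (log2 difference 2.44 ± 0.211), and Dmrtc2, of later prophase, 26.2, 32.4 and 28 TPM against 84 and 84.4 TPM (log2 difference 1.63 ± 0.125). The DM-domain factors Dmrtb1 and Dmrt1, which act in spermatogonia, both fell: Dmrtb1 from 219, 243 and 265 TPM to 114 and 105 TPM (log2 difference -1.07 ± 0.158) and Dmrt1 from 716, 749 and 685 TPM to 508 and 490.1 TPM (-0.44 ± 0.0951). Sohlh1, of differentiating spermatogonia, measured 183, 188 and 205 TPM against 113 and 115 TPM (log2 difference -0.68 ± 0.119). Among genes of undifferentiated spermatogonia 4 of 14 fell and 1, the TFIID subunit Taf4b, rose. Zbtb16, the transcription factor PLZF, measured 20.6, 18.2 and 16.7 TPM against 5.34 and 4.61 TPM (log2 difference -1.74 ± 0.154), and Sall4, a zinc finger factor of the same cells, 28.8, 17.5 and 13.2 TPM against 6.78 and 5.78 TPM (log2 difference -1.62 ± 0.284). Neurog3, a factor of early progenitors, was low in both groups, at 4.25, 4.44 and 3.36 TPM against 0.357 and 0.662 TPM (-2.84 ± 0.41). Of the differentiating spermatogonia list 6 of 16 fell and 1, the RNA-binding protein Elavl2 (187 ± 9.8 to 266 ± 11.4 TPM), rose (median -0.39). Among those that fell were the de novo DNA methyltransferase Dnmt3b at 27, 18.2 and 23.4 TPM against 6.62 and 6.52 TPM (log2 difference -1.72 ± 0.2) and the LIM factor Lmo1 at 26.3, 26.3 and 36.5 TPM against 7.66 and 10.4 TPM (log2 difference -1.67 ± 0.251). Differentiating genes numbered 3 and 3 lower without high-STRA8 replicate 1 or 2.

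The piRNA pathway, which silences transposons through small RNAs, ran against the meiotic lists: 8 of 25 genes fell and 2 rose. The tudor-domain genes Tdrd1 and Tdrd5 measured 142, 164 and 126 TPM against 79 and 74.9 TPM (log2 difference -0.81 ± 0.122) and 12.8, 10.6 and 15.5 TPM against 4.78 and 4.87 TPM (log2 difference -1.34 ± 0.199), whereas Rnf17, another tudor protein of germ cell granules, rose from 109, 102 and 85.1 TPM to 173 and 201 TPM. Genes of the piRNA pathway numbered 7 and 5 lower without high-STRA8 replicate 1 or 2. Only 9 of the 26 listed pachytene and later genes passed 1 TPM (median -0.1), and 2 of them rose, 22.2% against 18.9% over all genes. These were the HSP70 gene Hspa2 at 19.4, 16 and 18.8 TPM against 42.1 and 41.5 TPM (log2 difference 1.28 ± 0.119) and the transcription factor Crem at 26.8, 26.4 and 30.1 TPM against 43.2 and 39.9 TPM (log2 difference 0.89 ± 0.127). In 3 others both high-STRA8 libraries lay below all Stra8-deficient libraries. None was lower by edgeR or DESeq2, with 2 lower at an unadjusted p under 0.05 and 1 by limma on TPM.

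Most genes of origin licensing, origin firing and the replication fork rose as well. Replication begins with licensing, the loading of the MCM helicase on origins, and goes on with firing, its activation. Of the licensing genes 11 of 16 rose and none fell (median 0.96), and of the firing genes 12 of 14 rose and none fell (median 1.31). Cdc6, which loads MCM, measured 11.6, 13.4 and 11.8 TPM in the Stra8-deficient libraries and 85.5 and 72 TPM in the high-STRA8 libraries, a log2 difference of 2.76 ± 0.141 (SE; adjusted p = 5.13e-05), and Orc1, of the origin recognition complex, measured 29.5, 37.2 and 26.6 TPM against 94.3 and 94.2 TPM (log2 difference 1.69 ± 0.146). Gins3, of the GINS complex, measured 9.7, 11.4 and 9.05 TPM against 70.4 and 72.6 TPM (log2 difference 2.91 ± 0.16), and Cdc45, which joins MCM and GINS, 61.4, 69.6 and 68 TPM against 277 and 285 TPM (log2 difference 2.16 ± 0.15). For each of these genes the groups did not overlap.

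At the fork itself 29 of 38 genes rose and 2 fell (median 0.93). Clspn, the checkpoint mediator claspin, measured 34.6, 34.4 and 31.9 TPM against 104 and 106 TPM (log2 difference 1.74 ± 0.089), and Pola2, of polymerase alpha, 30.8, 30.9 and 28.7 TPM against 77.9 and 81.8 TPM (log2 difference 1.49 ± 0.0874). The members that fell were Pold2, a small subunit of polymerase delta, at 94.6, 104 and 106 TPM against 57.9 and 53.1 TPM (log2 difference -0.81 ± 0.144), and Rnaseh2a, of the enzyme that removes RNA from DNA, at 76, 77.2 and 91.8 TPM against 52.5 and 46.2 TPM (log2 difference -0.63 ± 0.138). Chaf1b, of the chromatin assembly factor that follows the fork, was among the largest increases, from 2.54, 3.92 and 2.94 TPM to 35.5 and 32.8 TPM (3.53 ± 0.413).

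Enzymes that make deoxynucleotides followed, with 8 of 15 higher. Rrm2, the regulated subunit of ribonucleotide reductase, measured 96.9, 114 and 79.3 TPM in the Stra8-deficient libraries and 642 and 611 TPM in the high-STRA8 libraries, a log2 difference of 2.77 ± 0.194 (SE; adjusted p = 6.47e-05). Thymidine kinase Tk1 measured 8.43, 8.39 and 8.01 TPM against 79.8 and 77.8 TPM (log2 difference 3.32 ± 0.224). The 2 members that fell, Dctd and Nt5c, are a deaminase and a phosphatase of nucleotides, and they measured 12.6, 14.4 and 15.5 TPM against 5.96 and 5.15 TPM (log2 difference -1.30 ± 0.188) and 36.2, 32.2 and 50.4 TPM against 19.6 and 19.9 TPM (log2 difference -0.97 ± 0.251). Histones made for replication gave few calls, 6 higher and 1 lower of 37. Their messages mostly lack a poly(A) tail and the copies are near-identical, so that levels in libraries selected for poly(A) are uncertain. Hist1h1a, the most distinct of them, measured 2.59, 5.44 and 1.95 TPM against 18.1 and 18.7 TPM (log2 difference 2.46 ± 0.439). Histone genes numbered 2 and 4 higher without high-STRA8 replicate 1 or 2 and 3 higher without Stra8-deficient replicate 2.

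Genes of the G1-S step were higher in 15 and lower in 4 of 31 cases. Ccne2, cyclin E2, measured 118, 94.6 and 58.9 TPM in the Stra8-deficient libraries and 754 and 740.1 TPM in the high-STRA8 libraries, a log2 difference of 3.14 ± 0.253 (SE; adjusted p = 9.65e-05). Cdc25a, the phosphatase that activates CDK2, measured 25.2, 29.7 and 22.8 TPM against 86.3 and 81.3 TPM (log2 difference 1.79 ± 0.135). Of the 8 E2F factors, which control replication genes, 4 rose and 3 fell. E2f1, an activator, rose from 33.5, 50.9 and 30.8 TPM to 109 and 106 TPM (log2 difference 1.56 ± 0.201) and the repressor E2f4 from 66.9, 75.5 and 69.7 TPM to 111 and 117 TPM, and E2f7 and E2f8 rose from lower levels. The falls of E2f3 (39.5 ± 6.03 to 28.3 ± 1.87 TPM, mean ± SD, n = 3 and n = 2), E2f5 (192 ± 23.6 to 143 ± 6.4 TPM) and E2f6 (20.5 ± 0.909 to 15 ± 0.00122 TPM) were no longer called without high-STRA8 replicate 1 or without replicate 2. The call of E2f5 was also lost without Stra8-deficient replicate 2, that of E2f6 without any 1 of the 5 libraries and that of E2f7 without high-STRA8 replicate 1. 

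Regulators of mitosis split, with 12 higher and 12 lower of 31. Ccnb3, the cyclin B of meiotic germ cells, rose from 6.76, 7.51 and 6.01 TPM to 42.5 and 45.1 TPM (log2 difference 2.79 ± 0.157, adjusted p = 5.23e-05), and Fbxo5, an inhibitor of the anaphase-promoting complex, from 13.4, 16 and 8.98 TPM to 73 and 77.2 TPM (2.62 ± 0.321). Bub1, of the spindle checkpoint, measured 93.7, 101 and 62.9 TPM against 262 and 289 TPM (log2 difference 1.77 ± 0.228). Aurkb, the kinase of the chromosomal passenger complex, moved in the other direction at 24.2, 24.9 and 25.1 TPM against 7.13 and 7.44 TPM (log2 difference -1.71 ± 0.148), and so did the mitotic kinase Plk1 at 22.4, 18.8 and 24.8 TPM against 3.96 and 3.02 TPM (log2 difference -2.57 ± 0.214). The spindle and kinetochore list went mostly one way, with 22 of 33 genes higher. Top2a, the topoisomerase that untangles replicated DNA, measured 107, 129.6 and 83.2 TPM against 764 and 826 TPM (log2 difference 2.99 ± 0.252), and Kif23, a motor of the midbody and of the bridges between germ cells, 37, 32.4 and 34.6 TPM against 159 and 174 TPM (log2 difference 2.34 ± 0.15). The 1 member that fell was Cenpa, the histone that marks centromeres, at 90.5, 68.7 and 103 TPM against 31.2 and 33.5 TPM (log2 difference -1.45 ± 0.204).

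Of the condensins and mitotic cohesins 10 of 23 rose. Esco2, which acetylates cohesin during replication, measured 106, 107 and 61.3 TPM against 469 and 497 TPM (log2 difference 2.49 ± 0.264), and the condensin II subunit Ncapg2 62, 57.7 and 44.9 TPM against 187 and 194 TPM (log2 difference 1.88 ± 0.139). Mitotic regulators numbered 6 and 6 higher without high-STRA8 replicate 1 or 2. Spindle genes numbered 18 and 14 higher without high-STRA8 replicate 1 or 2. Condensin and cohesin genes numbered 7 and 6 higher without high-STRA8 replicate 1 or 2.

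DNA repair genes outside the meiotic lists were higher in 17 and lower in 4 of 43 cases. Chek1, the kinase that answers to stalled forks, measured 39.8, 62.7 and 38.4 TPM against 172 and 160.3 TPM (log2 difference 2.08 ± 0.198), whereas Chek2, its counterpart for breaks, measured 17.5, 16.7 and 13.3 TPM against 6.88 and 9.19 TPM (log2 difference -0.90 ± 0.212) and was called lower (adjusted p = 0.0114). Nbn, of the MRN complex that senses breaks, rose at 37.9, 43.2 and 34.7 TPM against 82.8 and 90.7 TPM (log2 difference 1.24 ± 0.115). The excision repair genes Xpc and Ogg1 fell, with 31.7, 30 and 31.1 TPM against 17.2 and 16.5 TPM (log2 difference -0.78 ± 0.121) and 49.5, 48.3 and 48.9 TPM against 30.5 and 31.5 TPM (log2 difference -0.58 ± 0.109). 

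Chromatin regulators changed in both directions. In the polycomb list 13 genes rose and 6 fell of 31. Ezh2, the methyltransferase of PRC2, measured 73.2, 67.2 and 67.6 TPM against 163 and 163 TPM (log2 difference 1.33 ± 0.0875). In PRC1 paralogs parted, since Phc1 rose (76.4 ± 7.4 to 109 ± 3.57 TPM, mean ± SD) while Phc2 fell (60.5 ± 5.3 to 27.4 ± 1.05 TPM), as did Cbx2 (74.9 ± 8.75 to 32.6 ± 1.6 TPM) and Cbx8 (22.8 ± 1.04 to 12.6 ± 0.235 TPM). Among histone lysine methyltransferases and demethylases 15 rose and 6 fell of 39. The H3K9 methyltransferases Setdb1 and Setdb2 rose, Setdb1 from 96, 96.6 and 89.3 TPM to 215 and 223 TPM (log2 difference 1.32 ± 0.0833) and Setdb2 from 74.7, 61.7 and 63.3 TPM to 153 and 163 TPM (1.31 ± 0.112). The H4K20 enzymes parted: Kmt5c, which adds further methyl groups, measured 24.4, 27.8 and 23.9 TPM against 68.1 and 72.3 TPM (log2 difference 1.58 ± 0.134), and Kmt5a, which adds the first, 158, 165 and 163 TPM against 82.9 and 83.8 TPM (log2 difference -0.79 ± 0.0977).

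Remodelers were near the background, with 7 higher and 5 lower of 33, 21.2% and 15.2% against 18.9% and 18.3% over all genes. The rise of Hells, a remodeler needed for meiosis, from 211, 227 and 134 TPM to 512 and 524 TPM and of Smarca5, the ISWI motor, from 243, 208 and 207 TPM to 392 and 387 TPM stood beside a fall of the SWI/SNF core subunits Smarcb1 (103 ± 2.16 to 72.4 ± 4.04 TPM) and Smarcc1 (189.8 ± 7.37 to 131 ± 9.1 TPM). Of 14 DNA methylation genes 11 were not called. The de novo methyltransferases Dnmt3b, given above, and Dnmt3a fell, Dnmt3a at 92.9, 78.8 and 91.5 TPM against 50.5 and 46.8 TPM (log2 difference -0.67 ± 0.144). Polycomb genes numbered 7 and 4 higher without high-STRA8 replicate 1 or 2. Remodelers numbered 6 and 3 higher and 1 and 0 lower without high-STRA8 replicate 1 or 2, 3 lower without Stra8-deficient replicate 2 and 2 lower without Stra8-deficient replicate 3.

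Of the general transcription machinery, 21 genes rose and 8 fell of 68. Polr2a, the catalytic subunit of RNA polymerase II, measured 243, 237 and 235 TPM in the Stra8-deficient libraries and 475 and 415 TPM in the high-STRA8 libraries, a log2 difference of 1.0 ± 0.0933 (SE; adjusted p = 0.000175), while its small subunit Polr2e measured 184, 209 and 210.4 TPM against 139 and 135 TPM (log2 difference -0.50 ± 0.125) and was lower. Taf4b, the TFIID subunit enriched in germ cells, measured 108, 102 and 89 TPM against 198 and 199.6 TPM (log2 difference 1.09 ± 0.0992), and the Mediator subunits Med21 and Med24 moved apart, at 159, 126 and 137 TPM against 319 and 312 TPM (log2 difference 1.19 ± 0.114) and 88.8, 87.9 and 91.7 TPM against 54.4 and 51.1 TPM (log2 difference -0.67 ± 0.116). Splicing genes rose in 18 of 57 cases and fell in 2, with a median log2 difference of 0.12 (-0.01 with limma on TPM). Srsf7, an SR protein, measured 135, 116 and 109 TPM against 282 and 289.7 TPM (log2 difference 1.32 ± 0.104), and Prpf3, of the U4/U6 particle, 59.4, 58.5 and 63.5 TPM against 113 and 121 TPM (log2 difference 1.04 ± 0.103). Nuclear transport genes gave 18 higher and 6 lower of 53, with importins in both: Ipo5 (131 ± 18.6 to 247 ± 0.244 TPM) and Ipo9 (63.3 ± 3.61 to 104 ± 0.325 TPM) rose and Ipo4 (195 ± 6.78 to 114 ± 8.16 TPM) fell. Transcription genes numbered 10 and 9 higher and 1 and 1 lower without high-STRA8 replicate 1 or 2, 3 lower without Stra8-deficient replicate 3 and 15 lower with limma on TPM. Splicing genes numbered 8 and 9 higher without high-STRA8 replicate 1 or 2. Nuclear transport genes numbered 2 and 1 lower without high-STRA8 replicate 1 or 2.

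No ribosomal protein gene was higher by edgeR, also at an unadjusted p under 0.05, by DESeq2 or by limma on TPM. Of 86 tested, 11 were lower, 12.8% against 18.3% over all genes, and 75 were not called (edgeR). The median log2 difference was -0.21. Rps2 went from 1993, 1847 and 2575 TPM to 1138 and 982 TPM (log2 difference -0.89 ± 0.163) and Rps3a1 from 3146, 3047 and 3379.7 TPM to 2132 and 1991 TPM (-0.59 ± 0.122). These genes have many processed copies, so that their counts are less certain. Ribosomal protein genes numbered 10 and 1 lower without high-STRA8 replicate 1 or 2, 5 lower without Stra8-deficient replicate 3 and 25 lower with limma on TPM. Mitochondrial ribosomal proteins were lower in 18 and higher in 8 of 78 cases. Mitochondrial ribosomal genes numbered 4 and 3 higher and 4 and 0 lower without high-STRA8 replicate 1 or 2 and 7 lower without Stra8-deficient replicate 3.

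Translation factors were near the background, with 13 higher and 11 lower of 64, 20.3% and 17.2%. Eif2s2, the beta subunit of the initiation factor eIF2, and Eif2b3, of its exchange factor, rose to 320.3 and 314 TPM from 180, 171 and 192 TPM and to 189 and 198 TPM from 86.3, 94.6 and 97.4 TPM. Eif4ebp1, which holds back cap-dependent initiation until mTOR phosphorylates it, fell from 91.8, 112 and 101 TPM to 56.8 and 49 TPM, and Eef2k, the kinase that inhibits elongation, from 56.5, 62.4 and 58.1 TPM to 26.8 and 23.8 TPM. Of the tRNA synthetases 7 rose and 5 fell of 37, 18.9% and 13.5%, so that the share higher was that of all genes. Lars2, the mitochondrial leucine enzyme, measured 259, 155 and 154 TPM against 754 and 677 TPM (log2 difference 2.01 ± 0.206), and its cytosolic counterpart Lars 73.5, 75.7 and 73.7 TPM against 139 and 151 TPM (log2 difference 1.05 ± 0.0871). Translation factors numbered 7 and 6 higher and 5 and 2 lower without high-STRA8 replicate 1 or 2, 6 lower without Stra8-deficient replicate 3 and 22 lower with limma on TPM. Synthetases numbered 4 and 4 higher and 0 and 0 lower without high-STRA8 replicate 1 or 2, 3 lower without Stra8-deficient replicate 1, 2 lower without Stra8-deficient replicate 3 and 9 lower with limma on TPM.

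Of the subunits of the proteasome, which degrades tagged proteins, 5 rose and 10 fell of 40, the falls including both subunits of the PA28 activator, Psme1 (194 ± 19.5 to 101 ± 6.01 TPM) and Psme2 (195 ± 12.1 to 105 ± 0.77 TPM). Ubiquitin-specific proteases gave 10 higher and 12 lower of 46, and Usp1, which acts on PCNA and FANCD2, rose at 92.2, 78.5 and 73.3 TPM against 159 and 155 TPM (log2 difference 1.03 ± 0.103). Among heat shock proteins 4 rose and 5 fell of 25, and the abundant Hsp90ab1 went from 2513, 2641 and 2581 TPM to 1677 and 1546 TPM (log2 difference -0.59 ± 0.128). The integrated stress and unfolded protein list had 5 higher and 9 lower of 26. Xbp1, the factor of the unfolded protein response, measured 72.8, 66.7 and 73.5 TPM against 25.3 and 24 TPM (log2 difference -1.45 ± 0.128). The serine and folate enzymes Phgdh and Shmt2 fell, at 208, 254 and 234 TPM against 87 and 91.5 TPM (log2 difference -1.29 ± 0.117) and 82.6, 99.2 and 86.6 TPM against 42.1 and 41.7 TPM (log2 difference -1.01 ± 0.12), while Mthfd2 of the same route rose at 78.5, 80.6 and 76.3 TPM against 121 and 114 TPM (log2 difference 0.66 ± 0.125). Proteasome genes numbered 2 and 3 higher and 4 and 3 lower without high-STRA8 replicate 1 or 2 and 16 lower with limma on TPM. Ubiquitin protease genes numbered 8 and 6 higher and 2 and 1 lower without high-STRA8 replicate 1 or 2 and 7 lower without Stra8-deficient replicate 3. Heat shock genes numbered 1 and 0 lower without high-STRA8 replicate 1 or 2, 2 lower without Stra8-deficient replicate 1, 2 lower without Stra8-deficient replicate 2 and 1 lower without Stra8-deficient replicate 3. Stress response genes numbered 2 and 2 higher and 4 and 4 lower without high-STRA8 replicate 1 or 2, 3 higher without Stra8-deficient replicate 2 and 3 higher with limma on TPM.

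Genes of retinoic acid, the signal that starts the program, were lower in 6 and higher in 3 of 20 cases. The enzymes Aldh1a2, which makes retinoic acid, and Rdh10, which makes its precursor, rose from 86.4, 78 and 73.5 TPM to 131 and 131 TPM and from 22.8, 25 and 18.5 TPM to 33.2 and 32.6 TPM. The receptor Rxra fell from 21.6, 18.4 and 22.3 TPM to 5.96 and 5.39 TPM (log2 difference -1.77 ± 0.146, adjusted p = 0.000107), and Crabp2, which carries retinoic acid to the nucleus, from 66.6, 96.5 and 58.9 TPM to 28.6 and 30.2 TPM (-1.26 ± 0.255). Retinoic acid genes numbered 2 and 2 lower without high-STRA8 replicate 1 or 2.

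The KIT, PI3K and mTOR list, which holds the main growth signal of differentiating spermatogonia, gave 8 higher and 7 lower of 34. These were 23.5% and 20.6%, against 18.9% and 18.3% over all genes. Kit itself was at 578, 711 and 454 TPM against 489.7 and 448 TPM, with overlapping groups. Ddit4, an inhibitor of mTOR, was among the largest decreases at 175, 184 and 146 TPM against 23.4 and 27.2 TPM (log2 difference -2.66 ± 0.181), Akt1 fell at 97.9, 92.3 and 106 TPM against 50.6 and 46.7 TPM (log2 difference -0.98 ± 0.106), and Tsc1 and Sesn1, which restrain mTOR too, rose (22.4 ± 4.62 to 40.4 ± 3.09 TPM and 14.3 ± 1.83 to 29.2 ± 0.819 TPM). RAS-ERK genes gave 5 higher and 4 lower of 28, near the background at 17.9% and 14.3%. The ERK phosphatase Dusp7 was at 21.6, 20.5 and 18.2 TPM against 6.41 and 5.69 TPM (log2 difference -1.64 ± 0.171). KIT and mTOR genes numbered 6 and 4 higher and 3 and 3 lower without high-STRA8 replicate 1 or 2 and 11 lower with limma on TPM. RAS-ERK genes numbered 2 and 3 higher without high-STRA8 replicate 1 or 2.

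Of the TGF-beta and BMP list 3 rose and 7 fell of 26. The receptor Tgfbr1 measured 171, 139 and 116 TPM against 251 and 249.5 TPM (log2 difference 0.98 ± 0.163) and the inhibitor Smad7, itself a target of the pathway, 9.95, 7.45 and 6.35 TPM against 1.55 and 1.42 TPM (log2 difference -1.80 ± 0.307). In the WNT and Notch list 7 rose and 10 fell of 32, with the WNT target Axin2 at 11.5, 14 and 10.9 TPM against 5.98 and 5.42 TPM (log2 difference -0.98 ± 0.156) and the Notch target Hey1 at 6.52, 6.18 and 4.3 TPM against 13.5 and 12.8 TPM (log2 difference 1.30 ± 0.208). Immediate early genes, which respond within minutes to growth signals and to handling of cells, fell in 7 of 21 cases and rose in 2 (median -0.45). Fosl2, an AP-1 subunit, measured 3.64, 2.99 and 4.25 TPM against 0.475 and 0.415 TPM (log2 difference -2.93 ± 0.414), and Nr4a1 11.1, 22.9 and 20.2 TPM against 4.63 and 4.99 TPM (log2 difference -1.83 ± 0.358). Interferon genes were mostly not called, with 2 higher and 3 lower of 18, of which the factor Irf1 measured 18.1, 17.5 and 19.5 TPM against 5.84 and 4.9 TPM (log2 difference -1.69 ± 0.173). TGF-beta and BMP genes numbered 2 and 3 lower without high-STRA8 replicate 1 or 2. WNT and Notch genes numbered 5 and 4 higher and 5 and 3 lower without high-STRA8 replicate 1 or 2. Immediate early genes numbered 2 and 4 lower without high-STRA8 replicate 1 or 2. 

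In the p53 and apoptosis list 13 of 30 genes fell and 5 rose (median -0.27). The cyclin Ccng1, a target of p53, measured 77.7, 94 and 83.6 TPM against 33.1 and 35 TPM (log2 difference -1.25 ± 0.122). Casp9, an initiator caspase, fell from 33.2, 32.6 and 28 TPM to 19.3 and 18 TPM. Bcl2l1, which protects from apoptosis, rose from 52.3, 53.8 and 54.8 TPM to 71.6 and 68.9 TPM (log2 difference 0.49 ± 0.0896). Genes of p53 and apoptosis numbered 2 and 2 higher and 7 and 4 lower without high-STRA8 replicate 1 or 2.

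Genes of oxidative phosphorylation, which makes most ATP in mitochondria, rose in 4 and fell in 13 of 92 cases, 4.35% and 14.1% against 18.9% and 18.3% over all genes. With limma on TPM 24 were lower, 26.1% against 24.2% over all genes. Ndufs1, of complex I, measured 231, 224 and 211 TPM against 278 and 287 TPM (log2 difference 0.42 ± 0.0813), and Cox7b, of complex IV, 49.8, 39.7 and 50 TPM against 22.5 and 18.9 TPM (log2 difference -1.12 ± 0.193). Oxidative phosphorylation genes numbered 4 and 1 lower without high-STRA8 replicate 1 or 2, 4 lower without Stra8-deficient replicate 3 and 24 lower with limma on TPM. In the tricarboxylic acid cycle 2 rose and 5 fell of 22, with citrate synthase Cs at 214, 211 and 221 TPM against 348 and 345 TPM (log2 difference 0.77 ± 0.0874) and malate dehydrogenase Mdh2 at 258, 217 and 286 TPM against 139 and 134 TPM (log2 difference -0.83 ± 0.138). Glycolysis genes gave 4 higher and 6 lower of 22, the lactate carrier Slc16a1 rising from 48.5, 41.7 and 40.5 TPM to 95.4 and 94.9 TPM and hexokinase Hk1 falling from 7.96, 5.9 and 11.2 TPM to 2.88 and 3.25 TPM. Tricarboxylic acid cycle genes numbered 2 and 1 lower without high-STRA8 replicate 1 or 2 and 3 lower without Stra8-deficient replicate 1. Glycolysis genes numbered 2 and 3 lower without high-STRA8 replicate 1 or 2.

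Cholesterol synthesis genes moved in both directions, 6 higher and 7 lower of 24. Acat2, the first enzyme of the route, measured 21.7, 17.7 and 20.6 TPM in the Stra8-deficient libraries and 162 and 163 TPM in the high-STRA8 libraries, a log2 difference of 3.09 ± 0.199 (SE; adjusted p = 5.77e-05). Idi1 and Cyp51 rose to 172 and 188 TPM from 82.8, 55.9 and 54.3 TPM and to 81.7 and 81.4 TPM from 41.7, 42.2 and 37.8 TPM, while Mvd fell from 23.9, 25.9 and 22.4 TPM to 4.97 and 5.28 TPM (log2 difference -2.15 ± 0.177) and Dhcr7, the last enzyme, from 42.7, 43.2 and 50.5 TPM to 19.6 and 18.6 TPM (-1.09 ± 0.132). Fatty acid genes gave 4 higher and 7 lower of 24. Pparg rose from 0.101, 0.0 and 0.141 TPM to 33.4 and 42 TPM (8.99 ± 0.78, adjusted p = 0.00013), Acaca, which starts fatty acid synthesis, measured 40.4, 42.4 and 32.6 TPM against 81.7 and 88.6 TPM (log2 difference 1.25 ± 0.11), and Cpt1a and Acadm of fatty acid oxidation fell (119 ± 10.3 to 56.3 ± 1.31 TPM and 102 ± 6.71 to 59.3 ± 2.98 TPM). Cholesterol genes numbered 2 and 2 lower without high-STRA8 replicate 1 or 2 and 4 lower without Stra8-deficient replicate 3. Fatty acid genes numbered 5 and 4 lower without high-STRA8 replicate 1 or 2. The 202 solute carriers gave 42 higher and 35 lower, near the background at 20.8% and 17.3%. The neighbouring carnitine transporters Slc22a5 and Slc22a21 rose, at 11.3, 10.8 and 9.09 TPM against 31.8 and 34.9 TPM (log2 difference 1.77 ± 0.12) and 5.8, 5.57 and 4.82 TPM against 54.3 and 56.9 TPM (log2 difference 3.45 ± 0.203). Solute carriers numbered 23 and 22 higher and 19 and 14 lower without high-STRA8 replicate 1 or 2.

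Of the actin and tubulin genes of the cytoskeleton, 11 rose and 6 fell of 40, and 23 were not called. The share higher lay above the 18.9% over all genes and the share lower below the 18.3%. The median log2 difference was 0.07, against -0.02 over all genes. Tuba3a, an alpha-tubulin of the testis, measured 94.5, 86.6 and 160 TPM against 725 and 707 TPM (log2 difference 2.70 ± 0.32), with near-identical copies that could share its reads. Beta-actin Actb fell from 681, 567 and 741 TPM to 315 and 285 TPM (log2 difference -1.03 ± 0.172), as did Vasp, which speeds actin filament growth, from 55.6, 64.3 and 63.9 TPM to 12.5 and 11.4 TPM (-2.28 ± 0.148), whereas vinculin Vcl rose from 23, 25.9 and 18.7 TPM to 61.2 and 67.7 TPM. Kinesins and dyneins gave 11 higher and 8 lower of 49, near the background at 22.4% and 16.3%. The spindle motors Kif2a (95.1 ± 8.65 to 153 ± 3.84 TPM) and Kif18a (31.3 ± 4.88 to 59.1 ± 3.37 TPM) rose and the cargo motors Kif5a (34.1 ± 1.77 to 14.8 ± 0.181 TPM) and Kif21b (18.4 ± 1.3 to 8.82 ± 0.305 TPM) fell.

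Adhesion and matrix genes were mostly not called, 49 of 62, with Itgb5 at 50.5, 52.9 and 48.8 TPM against 23.3 and 19.7 TPM (log2 difference -1.15 ± 0.118) the clearest fall. Rab GTPases and lysosomal genes gave 15 higher and 13 lower of 77, near the background at 19.5% and 16.9%. Within this list the paralogs Rab6a and Rab6b moved apart, at 243, 167 and 196 TPM against 367 and 380.4 TPM (log2 difference 0.95 ± 0.133) and 38.7, 34.1 and 41.5 TPM against 13.9 and 12.3 TPM (log2 difference -1.64 ± 0.12). Autophagy genes gave 1 higher and 4 lower of 31, the falls including Sqstm1 (249.9 ± 18.7 to 147 ± 6.36 TPM), the receptor p62. Actin and tubulin genes numbered 7 and 6 higher and 1 and 1 lower without high-STRA8 replicate 1 or 2 and 3 lower without Stra8-deficient replicate 1. Kinesins and dyneins numbered 7 and 5 higher and 5 and 6 lower without high-STRA8 replicate 1 or 2 and 13 lower with limma on TPM. Adhesion genes numbered 4 and 5 lower without high-STRA8 replicate 1 or 2. Rab and lysosomal genes numbered 9 and 9 higher and 6 and 2 lower without high-STRA8 replicate 1 or 2. 

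Zinc finger genes were near the background, with 60 higher and 58 lower of 334. Zfp367 was the clearest rise at 21.8, 17.5 and 13.3 TPM against 112 and 113 TPM (log2 difference 2.76 ± 0.193). Zinc finger genes numbered 33 and 28 higher and 17 and 10 lower without high-STRA8 replicate 1 or 2. X-linked germline families gave 23 higher and 4 lower of 72, with Magee1 at 2.1, 2.29 and 2.9 TPM against 11.8 and 11.4 TPM (log2 difference 2.34 ± 0.212) and the falls in the Rhox2 cluster and Pramel3. Their copies are near-identical, and the split of reads among them is uncertain. X-linked genes numbered 15 and 12 higher without high-STRA8 replicate 1 or 2. Of all 551 X-linked genes tested 19.4% were higher and 10.7% lower, around a median log2 difference of 0.12, and of the 20 Y-linked genes 3 were higher and 6 lower. On the autosomes the share higher ran from 15 to 22.3% and the share lower from 13.1 to 22.5%.

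The largest increases among genes with at least 20 TPM in high-STRA8 cells held genes of several kinds beside those above. Rbpms2, an RNA-binding protein, measured 11.5, 13.9 and 11.9 TPM in the Stra8-deficient libraries and 137 and 129 TPM in the high-STRA8 libraries, a log2 difference of 3.51 ± 0.215 (SE; adjusted p = 5.47e-05). C2cd6, a C2-domain gene of the sperm tail, rose from 3.66, 4.84 and 3.96 TPM to 65 and 62 TPM (log2 difference 4.01 ± 0.301). Gm21704 on the Y chromosome, at 0.00545, 1.39e-07 and 2.29e-09 TPM against 20.3 and 82.4 TPM, had the largest fitted difference, but its 2 high-STRA8 libraries differed from each other and near-identical copies lie beside it. By the rule of under 1 TPM in every library of one group and over 5 TPM in every library of the other, 7 genes rose and none fell. These were Gm21704, Pparg, Rad51ap2, 4930523C07Rik, Gpr155, Klhdc7a and Traf5. The rule does not require silence in the lower group. The rise of 4930523C07Rik was not called by DESeq2 or in the fit of the 5 libraries alone. Gpr155, a transmembrane protein of lysosomes, measured 0.949, 0.823 and 0.478 TPM against 7.56 and 7.63 TPM (log2 difference 3.35 ± 0.289), and Traf5, an adaptor of TNF receptors, 0.234, 0.394 and 0.525 TPM against 6.37 and 5.64 TPM (log2 difference 4.01 ± 0.475).

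Among the largest decreases, Bhlhe41, a clock repressor, measured 49.5, 43.6 and 37.2 TPM in the Stra8-deficient libraries and 6.41 and 3.86 TPM in the high-STRA8 libraries, a log2 difference of -2.45 ± 0.164 (SE; adjusted p = 6.47e-05). Ckb, brain creatine kinase, measured 17.1, 25 and 28 TPM against 4.27 and 4.36 TPM (log2 difference -2.38 ± 0.279). Rspo1, an activator of WNT signaling, fell from 23.2, 31.6 and 14.6 TPM to 4.32 and 5.04 TPM, Tcea3, an elongation factor, from 76.5, 76.8 and 69.5 TPM to 15.7 and 16.2 TPM, Smtnl2 from 33.5, 39 and 24.2 TPM to 6.61 and 5.18 TPM, Gatsl2 from 30.1, 27.9 and 21.4 TPM to 3.87 and 3.98 TPM, and the X-linked Gm44 from 25.6, 26.9 and 24.4 TPM to 2.63 and 3.1 TPM. None of these fell to 0. That the groups do not overlap in them was a condition of the naming rule. The 8 most abundant genes that rose were Sycp3, the RNA-binding protein Dazl (1291 ± 293 to 2042 ± 21.1 TPM), the cyclophilin Ppia (1338 ± 97.4 to 1746 ± 214 TPM), Ptma, prothymosin alpha (4921 ± 744 to 7071 ± 527 TPM, mean ± SD), Hmgn2, a nucleosome-binding protein (1668 ± 142 to 2691 ± 327 TPM), the replacement histone H3f3b (1089.8 ± 121 to 2064 ± 163 TPM), Npm1 (1625 ± 95.3 to 2174 ± 15.2 TPM) and Hnrnpa2b1 (1348 ± 149.8 to 2107 ± 129.8 TPM). The 8 most abundant genes that fell were Hsp90ab1, the elongation factors Eef1a1 (6245 ± 242 to 4588 ± 255 TPM) and Eef2 (1535 ± 74.2 to 1046 ± 62.6 TPM) and 5 ribosomal protein genes, Rps2, Rps3a1, Rps10, Rpl8 and Rpl18. Of these falls, those of Eef1a1, Rps10 and Rpl18 were no longer called without Stra8-deficient replicate 2 or without replicate 3. Calls of both directions were fewer among short genes: in the shortest of 5 equal classes, with a median effective length of 850 bases, 12.2% were higher and 14.3% lower, and in the longest, at 5751 bases, 21.9% and 19.9%.

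STRA8 binding, measured by FLAG ChIP-seq in unsorted synchronized testes of FLAG/FLAG mice (n = 3), with wild-type mice (n = 3) as controls, gave a readout of the same genes that did not use their RNA. Summits lay within 1 kb of a start site of 69.7% of higher, 18.9% of lower and 30.9% of not called genes in FLAG/FLAG library 1, of 58.0, 7.74 and 17.9% in library 2 and of 40.9, 3.72 and 9.28% in library 3. In the wild-type libraries no class exceeded 0.805%. Counting as bound a gene whose start site had summits in 2 or 3 FLAG/FLAG libraries and in no wild-type library, 56.7% of the higher genes were bound (Wilson 95% interval 54.7 to 58.7), against 7.0% of lower genes (6.02 to 8.12) and 16.8% of genes not called. The intervals cover counting over genes only.

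Read from the binding side, 8.44% of the genes counted as having no summit were higher and 23.7% lower. These were 7614 genes with no FLAG/FLAG summit and 63 with summits in both FLAG/FLAG and wild-type libraries, and none of the genes in the other classes had a wild-type summit. With 1, 2 or 3 libraries holding a summit the shares were 18.9 and 15.7%, 34.5 and 7.85%, and 59.3 and 3.77%. The median log2 difference went from -0.16 to -0.01, 0.19 and 0.53 over the same classes. The genes counted as having no summit were also less expressed, with a median of 14.8 TPM in the Stra8-deficient group against 55.1 TPM for those bound in 3 libraries, and the part of expression level in this relation was not tested. Among lists, 6 of 7 telomere attachment genes and 12 of 15 cohesin and synaptonemal complex genes were bound, beside 22.6% of all genes tested, and so were 13 of 38 fork genes, whose bound members were all higher. Of the members that rose, 6 of 7 telomere genes, 10 of 11 cohesin and synaptonemal complex genes and 13 of 29 fork genes were bound. In the mitotic list 7 of the 12 genes that rose were bound and none of the 12 that fell. Over all genes 56.7% of the higher and 7.0% of the lower were bound, and the mitotic counts lay near these shares. X-linked germline families rose in 23 cases with 5 bound.

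**Figure D4:**
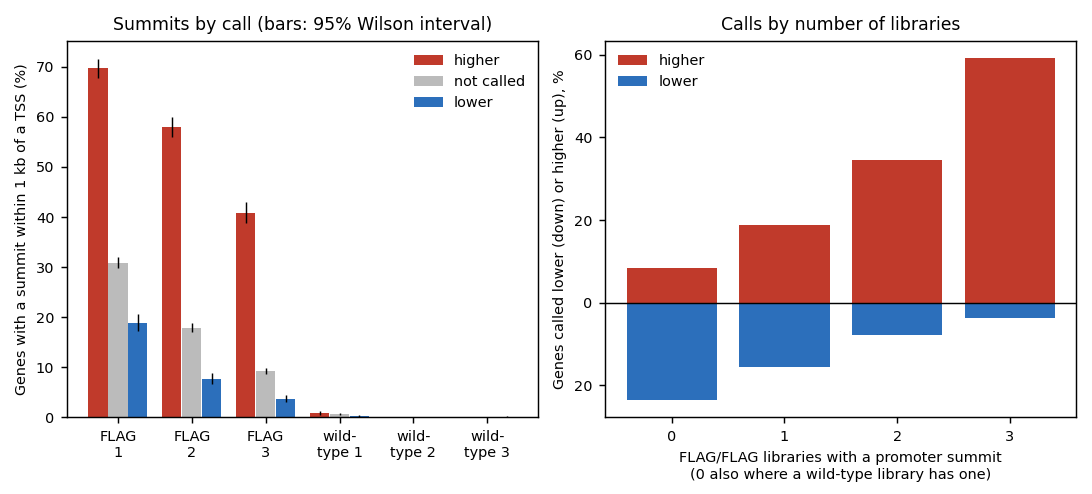
Left, percent of higher, lower and not called genes with a STRA8 summit within 1 kb of a start site in each of the 3 FLAG/FLAG and 3 wild-type ChIP libraries; right, percent of genes higher and lower by the number of FLAG/FLAG libraries with a summit, where 0 includes genes with a wild-type summit. The higher genes lead in each FLAG/FLAG library (69.7, 58.0 and 40.9%), and the share higher goes from 8.44 to 59.3% between 0 and 3 libraries.

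Short motifs in the promoter windows, searched on both strands, were counted in the same classes. CNCCTCAG was found in 16.1% of the windows of higher genes, 5.5% of lower genes and 8.45% of genes not called. Its share was 9.37% of the 12535 windows of tested genes and 7.94% of all 32851 windows in the table. Some genes have several windows, since those 12535 belong to 9808 genes. TTTCCCGC, a site of E2F factors, was found in 5.05% of windows of higher genes, 1.08% of lower and 1.44% of not called genes. Its share was 2.07% over windows of tested genes and 1.07% over all windows. TTTGGCGC, another E2F form, was found in 1.77, 0.662 and 0.755%, with 0.933% over windows of tested genes and 0.514% over all windows. CACGTG, the E-box, differed little, at 10.3, 11.3 and 9.84%, and CCAAT, the NF-Y box, was found in 41.7, 37.7 and 37.2%. The paper derived CNCCTCAG from STRA8 peaks at promoters of genes that were bound and higher in this same comparison. Its larger share in higher genes is therefore not independent of how it was found. The motifs do not contain one another. A match is a run of letters and not a measured site.

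Transcripts outside the protein-coding genes gave few calls, with 2.47% of noncoding genes higher and 0.505% lower, 88 and 18 genes, and these counts were not stable: without high-STRA8 replicate 2 they were 11 and 2.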

How the data were processed

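The authors quantified 40-base reads of poly(A) libraries with kallisto 0.43.0, which gives estimated counts, and deposited the estimated count of each transcript and the TPM of each protein-coding gene, rescaled over these genes. They also deposited a signal for each gene, its count divided by DESeq2 1.18.1 normalization factors. For ChIP-seq the authors aligned reads to mm10 with Bowtie 1.2.0 and called peaks with MACS2 2.1.1.20160309, and the deposited summit lists carry a score, the −log10 p. Input libraries were not used here.

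Transcripts were summed by gene where the sum gave the authors' TPM within 0.2% or 0.003 TPM. GENCODE M21 coordinates are of mm10. Rounded counts were tested with edgeR 4.0.16 in R 4.3.3 (TMM, robust quasi-likelihood F test) in 1 fit of 7 libraries in 3 groups, which shares the spread with 2 low-STRA8 libraries. Adjustment was by Benjamini-Hochberg over the genes fitted, at 0.05. Alternatives were DESeq2 1.42.0, limma 3.58.1 on log2(TPM + 1), log2(TPM + 0.1) and the deposited signal, other filters and libraries left out. The code was tested on simulated data with 200 changed genes. Shares have Wilson 95% intervals. Python 3.11.15, pandas 2.3.3, scipy 1.17.1 and matplotlib 3.10.9 were used, and sequences came from RefSeq.

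Samples were grouped by the labels. The members, the 61 gene lists and the tests were chosen with earlier results of these data known. Apart from the CNCCTCAG motif, the authors' gene-level findings were not used. Genes were named by rule: Stra8 and Ddx4, the 12 largest increases and decreases among genes that reached 20 TPM, the 3 genes of each list with the smallest adjusted p per direction, the 8 most abundant per direction, genes under 1 TPM in one group and over 5 TPM in the other, 8 genes by transcript share and 6 noncoding genes per direction. The largest changes and the most abundant genes were taken among called genes whose groups did not overlap in TPM. Marker genes and Kit and Dmc1 are named as list members. A few of these genes are not reported here. Replicate numbers did not pair the samples.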

Additional observations from a re-analysis of the deposited data

Results flagged for a closer look

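Genes outside the protein-coding table gave a signal as well. Transcripts that the annotation gives to noncoding genes and pseudogenes were summed in the same way, and of 3567 such genes tested 88 were higher in high-STRA8 cells and 18 lower (2.47% and 0.505%, edgeR, adjusted p under 0.05), with 384 and 156 at an unadjusted p under 0.05. The counts moved widely with the method: DESeq2 gave 135 and 48. Leaving out Stra8-deficient replicate 1, 2 or 3 gave 23, 21 and 37 higher and 7, 2 and 6 lower genes, and leaving out high-STRA8 replicate 1 or 2 gave 44 and 11 higher and 50 and 2 lower. The long noncoding classes held 65 of the higher and 9 of the lower genes, of 1501 tested, and the pseudogene classes 23 and 9 of 2017. Gm37091, on chromosome 1 at 39081252 to 39083338 of mm10, was at 2.53, 4.6 and 2.5 TPM in the Stra8-deficient libraries and 50.9 and 47.8 TPM in the high-STRA8 libraries. D430020J02Rik, which shares a promoter region with a coding gene by its class, rose from 0.818, 1.23 and 0.813 TPM to 9.7 and 9.15 TPM, and the long intergenic 4933427D06Rik from 87.7, 90.4 and 71.5 TPM to 299.7 and 348 TPM. Dbhos, antisense to Dbh, went from 0.0687, 0.177 and 0.103 TPM to 2.71 and 3.12 TPM. The highest of these genes was the transcribed pseudogene Gm7972, at 91.5, 94.5 and 78.5 TPM against 349 and 438 TPM.

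Among the lower genes, 2210408F21Rik was at 12.6, 17.9 and 13.6 TPM against 2.67 and 1.91 TPM, and 1700003M07Rik at 4.23, 4.03 and 4.38 TPM against 0.351 and 0.459 TPM. The pseudogene Rnf170-ps was at 4.62, 6.09 and 4.94 TPM and was listed at 0 in both high-STRA8 libraries, and Gm9134 was at 17.5, 29.3 and 48.2 TPM and likewise listed at 0. Pseudogenes share sequence with their parents and short reads may be split between them, so these levels are uncertain.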

How the results depend on the processing

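Without 1 library, higher genes numbered 1253 to 2310 and lower genes 728 to 2022, the fewest without high-STRA8 replicate 2. Bound shares of higher genes were 54.7% for summits within 500 bases, 37.3% for all 3 FLAG/FLAG libraries, 72.5% for at least 1 and 49.6% for scores of at least 10, and of lower genes 2.45% for all 3, 20.6% for at least 1 and 4.81% for the score. Noncoding genes higher numbered 135 with DESeq2, 0 with the replicate block and 11 to 44 without 1 library, and lower 48, 0 and 2 to 50. Replicate numbers did not pair the samples, whose same-numbered deviations correlated at r = -0.0296 and -0.0287, and with the replicate block 1844 genes were higher and 1546 lower, of which 1814 and 1484 were called so without it. DESeq2 gave 2393 higher and 2401 lower genes, the 5 libraries alone 2649 and 2649, and no filter on low levels 2253 and 2086. No gene called in one direction was called in the other under any alternative. For the 323 genes named by rule, of which 322 were called, 4613 of 4845 alternative values kept direction and side of the threshold, 232 kept the direction but missed the threshold, and 0 reversed. Most of these genes were named for a small adjusted p or a large change in the main fit, so the tally does not measure how stable calls are. Of all calls, 83.5% of the higher and 73.3% of the lower were kept without Stra8-deficient replicate 3. Depth limits genes near 1 TPM, and 2 high-STRA8 libraries limit small changes.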

Other observations

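The share of a gene's level held by each of its transcripts changed in some genes. Of 4558 genes over 10 TPM with several transcripts, 232 (5.09%) had a transcript whose mean share differed by at least 20 percentage points with no overlap between the groups, and of 3640 genes over 20 TPM, 173. These shares are a description without a test, and kallisto divides reads among transcripts that overlap in most of their sequence.

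Crbn, the substrate receptor of a ubiquitin ligase, was not called as a gene (log2 difference -0.18). Its transcript ENSMUST00000113239 held 100, 99.9 and 100% of its level in the Stra8-deficient libraries and 66.2 and 24.8% in the high-STRA8 libraries, with the remainder on ENSMUST00000013882. The 2 transcripts share their 3′ end at base 106780201 of chromosome 6 (mm10, minus strand) and differ in length by few bases, at 2072 and 2084 bases. In Polr3d, a subunit of RNA polymerase III, ENSMUST00000000793 held 25.1, 28.1 and 13.2% against 57.0 and 92.6%, and the gene was lower by -0.55 on the log2 scale. In Eya3, a phosphatase and transcriptional cofactor, ENSMUST00000079157 held 0.192, 4.25 and 4.63e-06% in the Stra8-deficient libraries and 11.1 and 100% in the high-STRA8 libraries, which differ widely from each other.

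Other genes by this measure were Gm15127 and Gm15097, X-linked and near-identical to neighbours, and Zfp467, Tbc1d7 and Gml. In Gm15127, for one transcript of 2026 bases, the Stra8-deficient libraries alone ran from 0.0029% to 94.0%, and in Tbc1d7 ENSMUST00000021797 held 10.3, 95.4 and 45.8% against 0.779 and 0.235%, so that the spread within the Stra8-deficient group was wide in both.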
